A study of Mus musculus and Acomys cahirinus with 2 samples.

Results

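The DNA replication genes described here are 37 genes whose products license and fire replication origins, copy DNA at the fork, supply nucleotides, rebuild chromatin behind the fork or open S phase. The members were chosen with earlier results of these data known, and rows were matched to them by name alone. A row of either gene list belonged to the set where its symbol equalled a member, upper and lower case ignored. All 37 had a row among the 28624 distinct symbols of the Mus list, and 34 had one among the 24509 of the Acomys list. Pcna, Tyms and Slbp matched no Acomys row under those symbols and were not analysed in that species. Cells of adult ear skin were profiled by the 10x Genomics droplet assay, which counts transcripts from their 3' ends with unique molecular identifiers (UMIs). There was 1 library from Mus musculus, the house mouse, and 1 from Acomys cahirinus, the Cairo spiny mouse. Both carry the label day 0, while the series' title and design line call the ears injured, and strain, sex, genotype, treatment and the number of animals are not stated in the labels. With 1 library per species there was no replicate and no test, and species, animal, library and gene annotation cannot be told apart. Intervals in parentheses are exact 95% intervals that cover counting error only.

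Before S phase, Cdc6 and Cdt1 load the ring of MCM proteins on origins, and Cdc45 and the GINS complex then turn that ring into an active helicase. The clamp loader places the sliding clamp Pcna on DNA for the polymerases, while ribonucleotide reductase and thymidine kinase feed the fork with deoxynucleotides. Many of these genes are transcribed under control of E2F factors as a cell passes from G1 into S phase, and in epidermis the dividing cells lie mainly in the basal layer, with suprabasal cells having left the cell cycle.

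Promoters were examined because the members move together in the cells described below. RefSeq promoter windows of mouse build GRCm38.p6, 300 bases that end 50 bases after the transcription start, matched 31 of the 37 members. E2F-like words (TTTCCCGC, TTTCGCGC, TTTGCCGC or TTTGGCGC on either strand) lay in the windows of 12 of these 31 members, or 38.7%, against 2.60% of 27025 genes. Mcm6 held 3 such words, Mcm3, Mcm5, Mcm7 and Rfc3 held 2 each, and Pola1, Lig1, Hells, Cdt1, Cdc6, Uhrf1 and Pold1 held 1 each. Of 45 further replication genes, 33.3% held a word, and of 50 G2 and mitosis genes 6%. CHR words (TTTGAA or TTCGAA) lay in 5 of the 31 members, or 16.1%, against 21.7% of all genes and 76% of the mitosis genes. CCAAT lay in 51.6% of the members, 41.1% of all genes and 78% of the mitosis genes. A match is a description of letters and says nothing of binding. The 200 bases before the start are shown for 4 members that differ in the number and spacing of the words, 5' to 3' along the gene's strand, with the E2F-like words in capitals.
Mcm6, chr1:128359706-128359905, minus strand: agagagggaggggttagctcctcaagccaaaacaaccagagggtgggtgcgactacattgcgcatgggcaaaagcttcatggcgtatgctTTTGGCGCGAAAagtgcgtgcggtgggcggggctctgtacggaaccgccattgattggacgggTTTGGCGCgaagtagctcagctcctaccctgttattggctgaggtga
Mcm5, chr8:75109309-75109508, plus strand: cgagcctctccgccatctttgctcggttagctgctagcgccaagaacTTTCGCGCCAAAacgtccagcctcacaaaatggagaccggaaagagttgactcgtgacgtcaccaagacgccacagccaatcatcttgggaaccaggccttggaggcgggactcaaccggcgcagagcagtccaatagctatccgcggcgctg
Cdc6, chr11:98907951-98908150, plus strand: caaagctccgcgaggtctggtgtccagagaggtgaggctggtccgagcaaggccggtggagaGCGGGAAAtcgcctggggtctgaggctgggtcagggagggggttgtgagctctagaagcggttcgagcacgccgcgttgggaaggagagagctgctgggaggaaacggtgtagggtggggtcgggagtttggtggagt
Hells, chr19:38930790-38930989, plus strand: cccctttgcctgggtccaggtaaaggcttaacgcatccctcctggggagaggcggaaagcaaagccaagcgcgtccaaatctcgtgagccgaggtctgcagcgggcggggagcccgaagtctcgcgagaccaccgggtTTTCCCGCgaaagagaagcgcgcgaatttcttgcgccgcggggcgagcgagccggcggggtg
In Mcm6 and in Mcm5 the capitals first hold a pair of words on opposite strands that overlap and share their middle bases, starting 110 and 106 bases before the start in Mcm6 and 153 and 149 bases before it in Mcm5. Mcm6 has a further word that starts 47 bases before the start. Cdc6 and Hells each have 1 word, starting at 138 and 62 bases before the start.

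After filtering, 6556 Mus cells (median 11756.5 UMIs) and 4603 Acomys cells (median 7498 UMIs) remained, and 32 cell barcodes occurred in both libraries. Each library was clustered without the members and without the other listed cell cycle and replication genes, so that no member entered the clustering. Genes outside these lists that rise with the members could still enter it, and the doublet score left out no gene of the lists. Clusters were named from marker genes as basal-like, suprabasal-like, follicle-like and sebocyte-like, called basal, suprabasal, follicle and sebocyte cells below. Levels are given as CPM, a gene's UMIs per 1000000 UMIs on the 15710 symbols present in both lists. Basal cells numbered 3292 in Mus and 1718 in Acomys, and suprabasal cells 1630 and 946. Follicle cells numbered 371 and 109, sebocytes 283 and 338, and other or unnamed cells 980 and 1492. The summed basal markers stood at 60679 CPM in Mus basal cells and 6972 CPM in Mus suprabasal cells. In Acomys, where 9 of the 10 basal markers had a row, they stood at 19175 and 2523 CPM. Follicle cells held 29990 CPM of basal markers in Mus and 25655 CPM in Acomys, the latter above Acomys basal cells. Suprabasal markers stood at 125641 CPM in Mus suprabasal cells against 14969 CPM in basal cells, and at 162871 against 20549 CPM in Acomys. Acomys basal cells thus held slightly more UMIs of suprabasal than of basal markers. Other or unnamed cells held 41753 CPM of basal and 22049 CPM of suprabasal markers in Mus, and 9562 and 88905 CPM in Acomys. This pool is therefore not free of keratinocyte-like cells.

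The replication genes were most concentrated in basal cells and, in Mus, in sebocytes. Summed over the 34 shared members, basal cells held 1779 CPM in Mus (1763 to 1796) and 1764 CPM in Acomys (1737 to 1791). Suprabasal cells held 380 CPM in Mus (371 to 388) and 307 CPM in Acomys (295 to 320). Sebocytes stood above basal cells in Mus, at 2234 CPM (2176 to 2294), though not at a finer clustering resolution (1517 CPM). They stood below basal cells in Acomys, at 1270 CPM (1219 to 1322). Follicle cells held 1163 CPM in Mus (1117 to 1210) and 605 CPM in Acomys (525 to 694), the latter from 205 member UMIs in 109 cells. Other cells held 1084 and 668 CPM. Barcodes of 1 to 10 UMIs, taken as a measure of free RNA in the droplets, held 1461 CPM of members in Mus and 1269 CPM in Acomys, which is above the suprabasal level of either library. With a free RNA share of 10% subtracted, suprabasal cells held 264 CPM in Mus and 200.5 CPM in Acomys.

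**Figure D1:**
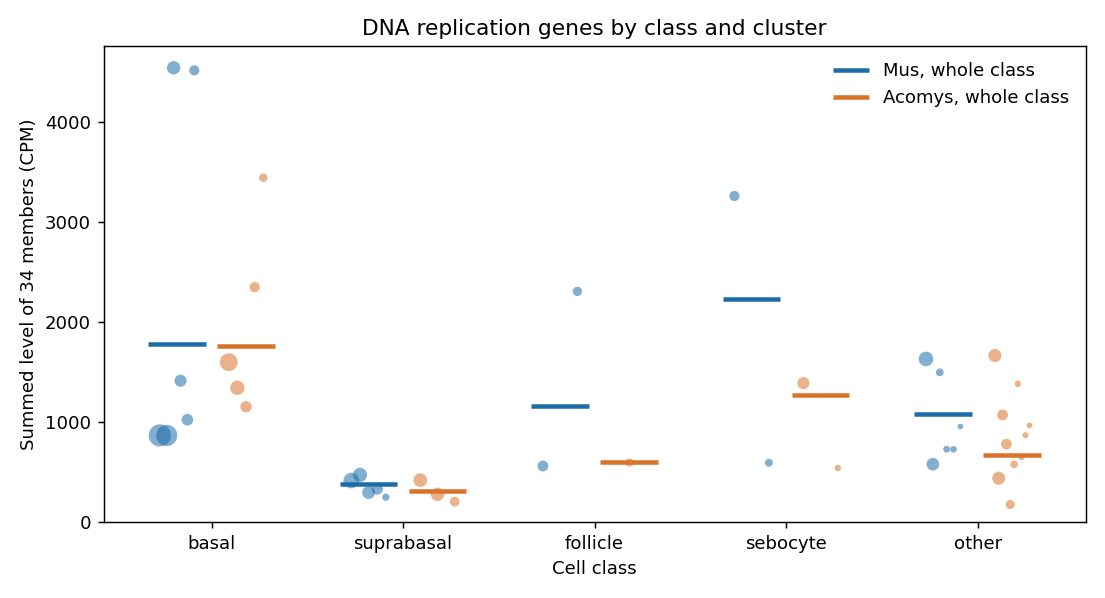
Summed level of the 34 shared replication genes, in CPM (y axis), in 5 cell classes (x axis) of the Mus and the Acomys library. Horizontal bars give the whole class and circles its clusters, with area by number of cells. The basal bars stand at 1779 and 1764 CPM, and clusters within a class lie several-fold apart.

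Clusters within a class lay several-fold apart. Among Mus basal clusters, 187 cells led by E2f1, Ung, Mcm5, Mcm3 and Mcm2 held 4515 CPM of members, and 371 cells led by the DNA topoisomerase Top2a held 4541 CPM. The 293 basal cells led by the mitotic genes Cenpa and Cdc20 held 1414 CPM, and the largest 2 basal clusters, of 1140 and 1034 cells, each held 867 CPM. Acomys basal clusters ranged from 3442 CPM in 111 cells led by Cdk1 and Top2a, through 2349 CPM in 192 cells led by Ccnb2 and Cdc20, to 1153 CPM in 255 cells led by Defb1, Ccl7 and Ccl20. The largest Acomys basal cluster, 721 cells led by Cyp1a1 and Fst, held 1599 CPM. Several of these leading genes are members, since leading genes were read after the clustering.

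Sebocytes divided in the same way in both libraries. In Mus, 193 cells with Pparg, a regulator of lipid synthesis, among their markers held 3260 CPM of members, while 90 cells with Scd1 and Elovl3, enzymes of lipid synthesis, held 595 CPM. In Acomys, 300 cells with Pparg held 1390 CPM and 38 cells with Awat1 and Elovl3 held 543 CPM. The Mus follicle class likewise held 148 cells with Lgr5 and Lhx2 at 2306 CPM and 223 cells with Krt79 and Defb6 at 562 CPM. Acomys had a single follicle cluster of 109 cells with Krt75, Sox9 and Lhx2, at 605 CPM. Granular cells of Mus, 65 cells with Lor and Flg, held 250 CPM. Acomys had an unnamed cluster of 139 cells with Klk5 and S100a8 among its leading genes, at 177 CPM.

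The replication genes were higher in basal than in suprabasal cells in both libraries, in every role. For the sum, the basal level was 4.68 times the suprabasal level in Mus (4.57 to 4.80) and 5.74 times in Acomys (5.50 to 5.997). Of the 32 members with at least 10 CPM in either class, 32 were at least 2-fold higher in Mus basal cells, against 18.3 percent of all genes. In Acomys 28 of 28 were, against 20.6 percent of all genes. The median log2 ratio was 2.51 for members and 0.38 for all genes in Mus, and 2.77 and 0.41 in Acomys. The smallest Mus ratios were 2.05 for Pola1, the catalytic subunit of DNA polymerase alpha, and 2.37 for the primase subunit Prim1. The largest was 13.4 (11.7 to 15.5) for Dut, which clears dUTP from the nucleotide pool. In Acomys, the ratios of the 28 members ran from 2.32 for Rfc3 to 12.6 (10.2 to 15.6) for Tk1, thymidine kinase. Other replication genes outside the member list stood at 2.10 and 2.22 for their sum in Mus and Acomys. G2 and mitosis genes stood at 2.41 and 4.42 for their sum, below the members. By the median log2 ratio the mitosis genes stood above the members, at 3.62 in Mus and 4.004 in Acomys. Of the mitosis genes, 39 of 45 in Mus and 40 of 44 in Acomys were at least 2-fold higher in basal cells. Other replication genes had medians of 1.21 and 1.44, with 23 of 40 and 23 of 35 at least 2-fold higher.

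In basal cells the summed Acomys level was 0.992 times the Mus level (0.974 to 1.01), and between 0.852 and 1.05 times over the alternative settings. Of the 33 members with at least 10 CPM in either library, 3 were at least 2-fold higher in Acomys, against 15 percent of all genes, and 5 were at least 2-fold lower, against 36.9 percent. The median log2 ratio of Acomys to Mus was 0.03 for the members and -0.38 for all genes. The sum held members of opposite direction. The 4 members Rrm2, Rfc2, Rfc5 and Ccne2, chosen after their values were seen, were nearly absent from the Acomys library, and without them Acomys basal cells held 1759 CPM against 1525 CPM in Mus, a ratio of 1.15 (1.13 to 1.17). Those 4 summed to 254 CPM in Mus basal cells and 4.92 CPM in Acomys.

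**Figure D2:**
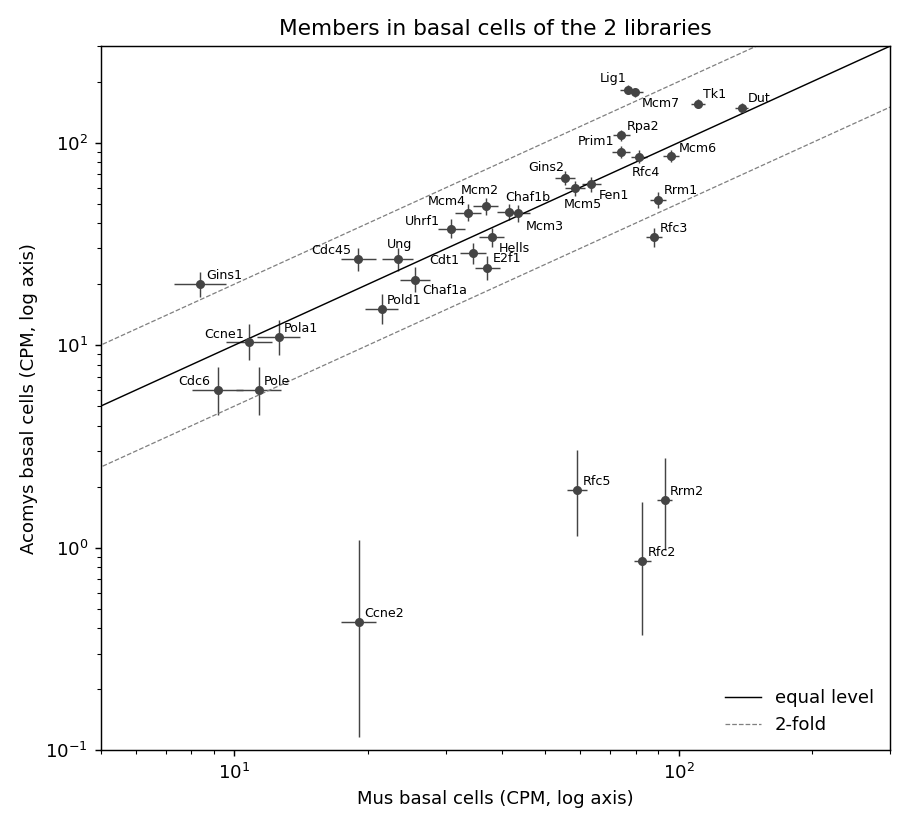
Level of each of the 34 shared members in basal cells, Mus CPM (x axis) against Acomys CPM (y axis), both axes logarithmic, with exact 95% intervals. The solid line marks equal levels and dashed lines mark a 2-fold difference. Rrm2, Rfc2, Rfc5 and Ccne2 lie far below the lower line, Rfc3 lies just below it, and Mcm7, Gins1 and Lig1 lie above the upper line.

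The licensing genes, the MCM ring with its loaders Cdt1 and Cdc6, summed to 392 CPM in Mus basal cells and 495 CPM in Acomys, a ratio of 1.26 (1.22 to 1.31). Mcm7, a subunit of the ring, made up most of this difference. It stood at 79.7 CPM (76.3 to 83.3) in Mus basal cells and 177 CPM (169 to 186) in Acomys, a ratio of 2.22 (2.08 to 2.37). In suprabasal cells Mcm7 was level, at 19.3 and 19.9 CPM, and in sebocytes it stood at 82.4 and 120 CPM. Mcm6, another ring subunit, leaned slightly to the other side. Its basal level was 96.2 CPM (92.5 to 100) in Mus and 85.8 CPM (80.0 to 91.9) in Acomys, a ratio of 0.891 (0.822 to 0.966). Its suprabasal levels were 21.4 and 11.9 CPM and its sebocyte levels 103 and 76.1 CPM. The other 4 ring subunits had basal ratios between 1.02 for Mcm5 and 1.35 for Mcm4. Cdt1 stood at 34.4 and 28.5 CPM in basal cells and Cdc6 at 9.17 and 5.99 CPM.

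The helicase activators Cdc45, Gins1 and Gins2 summed to 82.8 CPM in Mus basal cells and 113 CPM in Acomys, a ratio of 1.37 (1.27 to 1.47). Gins2, a GINS subunit, stood at 55.4 CPM (52.6 to 58.4) in Mus and 66.9 CPM (61.7 to 72.3) in Acomys basal cells, a ratio of 1.21 (1.10 to 1.33) that fell below 1 with a lower UMI minimum per cell (0.970) or without doublet removal (0.993). In suprabasal cells it stood at 7.92 and 7.27 CPM, and in sebocytes at 77.1 and 44.8 CPM. Follicle cells held 64.0 CPM of Gins2 in Mus and 20.7 CPM in Acomys. Gins1, its partner, had a low level in both species but a basal ratio of 2.39 (1.95 to 2.92), from 8.38 CPM in Mus and 20 CPM in Acomys. Cdc45 stood at 19.02 and 26.5 CPM in basal cells.

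The clamp loader showed a gap in basal cells that rested largely on Rfc2 and Rfc5. Its small subunits Rfc2 to Rfc5 summed to 311 CPM in Mus basal cells and 122 CPM in Acomys, a ratio of 0.392 (0.368 to 0.417), and without Rfc2 and Rfc5 to 169 and 119 CPM, a ratio of 0.704 (0.658 to 0.752). The subunits did not move together. Rfc4 was level, with 81.4 CPM (77.9 to 85.0) in Mus and 85.3 CPM (79.4 to 91.4) in Acomys basal cells, a ratio of 1.05 (0.964 to 1.14), and with 31.4 and 30.9 CPM in suprabasal cells. Rfc3 stood at 88.1 CPM (84.4 to 91.8) and 34.02 CPM (30.4 to 38.0), 2.59-fold lower in Acomys (2.30 to 2.92). Its sebocyte levels were 108 and 35.1 CPM. Rfc5 was 30.7-fold lower in Acomys basal cells (19.3 to 51.9), at 1.93 CPM from 18 UMIs against 59.0 CPM from 1493 UMIs. Rfc2 was 96.8-fold lower (49.1 to 225), at 0.856 CPM from 8 UMIs against 82.9 CPM from 2096 UMIs. Over all cells of the Acomys library Rfc2 had 16 UMIs and Rfc5 had 36, against 3354 and 2221 in Mus. The clamp itself, Pcna, was measured in Mus alone, at 83.0 CPM in basal, 32.9 CPM in suprabasal and 84.8 CPM in sebocyte cells.

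Polymerase and fork genes had the highest Acomys to Mus ratio of the 7 roles in basal cells. The 7 of them summed to 335 CPM in Mus basal cells and 476 CPM in Acomys, a ratio of 1.42 (1.37 to 1.47). That interval overlaps the 1.27 to 1.47 of helicase activation. The ratio of the 7 genes was 1.07 (0.987 to 1.16) in suprabasal cells, where chromatin genes stood at 1.47 (1.23 to 1.75), and 0.934 (0.841 to 1.04) in sebocytes. Lig1, the ligase that joins Okazaki fragments, made up most of the difference in basal cells. It stood at 77.1 CPM (73.7 to 80.6) in Mus and 182 CPM (174 to 191) in Acomys, a ratio of 2.37 (2.22 to 2.53). Its excess extended to every class: 21.6 and 45.7 CPM in suprabasal cells, 70.2 and 121 CPM in sebocytes, 40.2 and 103 CPM in follicle cells. Rpa2, a subunit of the complex that coats single-stranded DNA, stood at 74.4 CPM (71.1 to 77.8) and 109 CPM (102 to 116) in basal cells, a ratio of 1.46 (1.36 to 1.58). Fen1, the flap endonuclease, was level in basal cells, at 63.5 CPM (60.5 to 66.7) and 62.3 CPM (57.3 to 67.5), a ratio of 0.980 (0.890 to 1.08). Prim1 stood at 74.3 CPM (71.0 to 77.7) and 89.9 CPM (83.9 to 96.1), a ratio of 1.21 (1.11 to 1.31). In suprabasal cells the order of Prim1 was the opposite, 31.4 CPM in Mus and 12.9 CPM in Acomys. The polymerase subunits Pola1, Pold1 and Pole had ratios of 0.868, 0.703 and 0.528 from levels of at most 21.5 CPM.

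Genes of nucleotide supply summed to 455 CPM in Mus basal cells and 385 CPM in Acomys, a ratio of 0.845 (0.813 to 0.877) that turned to 1.06 (1.02 to 1.098) without Rrm2. Ribonucleotide reductase, which makes deoxynucleotides, was lower in Acomys at both subunits, though for Rrm2 low expression and missing annotation cannot be told apart. Rrm1, its large subunit, stood at 89.8 CPM (86.2 to 93.6) in Mus and 52.3 CPM (47.8 to 57.2) in Acomys basal cells, a ratio of 0.582 (0.527 to 0.642). Rrm2, its small subunit, stood at 93 CPM from 2352 UMIs in Mus and 1.71 CPM from 16 UMIs in Acomys, 54.3-fold lower (33.4 to 95.2). Rrm2 was low across the whole Acomys library, with 21 UMIs over all cells against 3170 in Mus, and with no UMI in Acomys sebocytes against 293 UMIs in Mus sebocytes, at least 73.5-fold lower when 3 UMIs over the class are set in place of 0. Barcodes of 1 to 10 UMIs held 3.95 CPM of Rrm2 in Acomys and 81.0 CPM in Mus. Tk1, which recovers thymidine, was higher in Acomys basal cells, at 156 CPM (148 to 164) against 111 CPM (106 to 115), a ratio of 1.41 (1.32 to 1.502). In sebocytes Tk1 had the reverse order, 173 CPM in Mus and 68.0 CPM in Acomys. Dut stood at 139 CPM (134 to 144) and 148 CPM (141 to 156) in basal cells, a ratio of 1.07 (1.004 to 1.14) that falls below 1 under 4 alternative settings. The uracil glycosylase Ung stood at 23.3 and 26.5 CPM. Tyms, thymidylate synthase, stood at 178 CPM in Mus basal, 63.6 CPM in suprabasal and 202 CPM in sebocyte cells.

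Chromatin genes summed to 136 CPM in Mus basal cells and 138 CPM in Acomys, a ratio of 1.02 (0.954 to 1.09). Their ratios ran from 0.828 for Chaf1a, a subunit of the histone chaperone CAF-1, to 1.22 for Uhrf1, which carries DNA methylation through replication. Slbp, which binds the stem-loop of histone mRNAs, stood at 188 CPM in Mus basal and 53.6 CPM in suprabasal cells. The genes of S-phase entry summed to 67.0 CPM in Mus and 34.9 CPM in Acomys, a ratio of 0.521 (0.461 to 0.586), or 0.719 (0.634 to 0.813) without Ccne2. The transcription factor gene E2f1 stood at 37.1 and 24.1 CPM. The cyclin genes diverged: Ccne1 stood at 10.8 and 10.4 CPM, whereas Ccne2 stood at 19.1 CPM in Mus and 0.428 CPM in Acomys from 4 UMIs, 44.5-fold lower (17.3 to 164). For Rrm2, Rfc2, Rfc5 and Ccne2, a low level of the transcript and a gap in the Acomys gene annotation cannot be told apart from these counts.

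Outside basal cells the summed level was lower in Acomys than in Mus, as was the median over all genes. The sum in Acomys was 0.808 times that in Mus in suprabasal cells (0.772 to 0.846), 0.568 times in sebocytes (0.541 to 0.596) and 0.521 times in follicle cells. Without Rrm2, Rfc2, Rfc5 and Ccne2 these ratios were 0.962 (0.918 to 1.01), 0.654 (0.622 to 0.687) and 0.578 (0.498 to 0.668), and the first interval holds 1. The median log2 ratio was -0.57 for members and -0.46 for all genes in suprabasal cells, -0.88 and -0.69 in sebocytes, and -1.07 and -0.31 in follicle cells. In follicle cells 1 of 30 members was 2-fold or more above Mus, against 17.2 percent of all genes, and 17 were below it, against 32.8 percent. The Acomys follicle class held 205 member UMIs in 109 cells, so folds of single members rest on few UMIs. The Mus follicle class pooled clusters of 2306 and 562 CPM, and the part of class makeup was not tested. In suprabasal cells 2 of 16 members were at least 2-fold higher in Acomys, against 14.7 percent of all genes, namely Dut at 2.19 and Lig1 at 2.12. Another 6 of the 16 were lower, against 39 percent of all genes, a share near the background. In sebocytes none of 33 members had a 2-fold or larger excess in Acomys, against 12.3 percent of all genes, and 15 were lower, against 44 percent, again a share near the background. Lig1 at 1.72 and Mcm7 at 1.46 had the highest ratios there, and the low ones included Tk1 at 0.393, Hells at 0.448 and Dut at 0.544. G2 and mitosis genes had the same order in sebocytes, with a summed ratio of 0.327 (0.315 to 0.338). Sebocyte markers summed to 14060 CPM in the Mus sebocyte class and 5093 CPM in the Acomys class, and the part of class makeup in this gap was not tested.

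To count cells rather than UMIs, each cell was thinned to 1500 UMIs on shared symbols, which left out 2 Mus and 37 Acomys cells. Among basal cells, 599 of 3290 in Mus (18.2%, 16.9 to 19.6) and 373 of 1718 in Acomys (21.7%, 19.8 to 23.7) had a UMI of at least 4 of the 34 members. The order of the species was the opposite for at least 6 members (9.76% and 9.20%), with a UMI minimum of 1000 per cell (17.2% and 14.1%) and without doublet removal (18.5% and 17.0%). No member was detected in 26.2% of Mus and 25.8% of Acomys basal cells, and the highest number detected in 1 cell was 18 in Mus and 12 in Acomys. Just outside the limit, 271 Mus and 153 Acomys basal cells had 3 members, and just inside it 156 and 134 had 4, so the counts pass through the limit without a break. Unthinned, 66.4% of Mus and 54.4% of Acomys basal cells had at least 4 members. Cells with at least 4 members at the thinned depth were also deeper before thinning, with a median of 15027 UMIs against 10744 UMIs for other Mus basal cells.

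**Figure D3:**
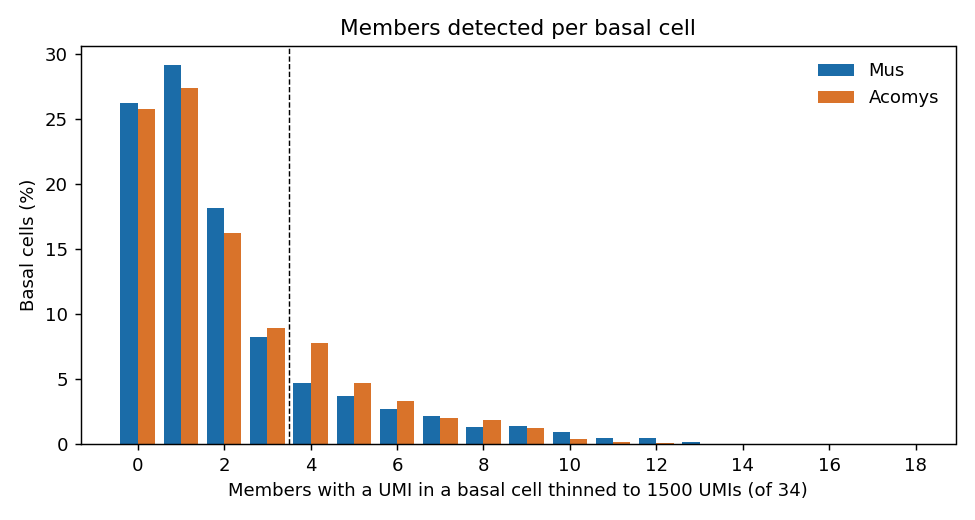
Percent of basal cells (y axis) by the number of the 34 members detected at 1500 UMIs per cell (x axis), for the Mus and the Acomys library. The dashed line marks the limit of 4 members. Both distributions fall smoothly through the limit, with 18.2% of Mus and 21.7% of Acomys cells on its right.

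Such member-rich cells were rare among suprabasal cells of both libraries and among Acomys follicle cells. Suprabasal cells had 8 of 1630 in Mus (0.491%, 0.212 to 0.965) and 4 of 946 in Acomys (0.423%, 0.115 to 1.08). Unthinned, 57.9% of Mus and 21.04% of Acomys suprabasal cells had at least 4 members, at a median of 18476.5 and 11504 UMIs per cell. Sebocytes had 85 of 283 in Mus (30.04%, 24.8 to 35.7) and 49 of 338 in Acomys (14.5%, 10.9 to 18.7). Follicle cells had 47 of 371 in Mus (12.7%, 9.46 to 16.5) and 1 of 109 in Acomys (0.917%, 0.0232 to 5.01). Other and unnamed cells had 94 of 980 in Mus (9.59%, 7.82 to 11.6) and 83 of 1455 in Acomys (5.70%, 4.57 to 7.02). Basal cells made up 599 of the 833 member-rich Mus cells (71.9%, 68.7 to 74.9) and 373 of the 510 member-rich Acomys cells (73.1%, 69.1 to 76.9). By cluster, the share was 80.2% in the Mus basal cluster led by E2f1 and Mcm genes and 73.0% in that led by Top2a, against 5.44% and 4.84% in the largest 2. In Acomys it was 63.1% (53.4 to 72.0) in the basal cluster led by Cdk1 and Top2a, and between 14.1% and 31.8% in the other 4. No granular cell of Mus was member-rich, 0 of 65, which allows a share of up to 4.62% by the limit of 3 counts and up to 5.52% by the exact interval.

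The members were detected together. For each member in turn, basal cells with a UMI of at least 4 of the other members were set against those with at most 1 of the others, so that a member never chose its own cells. Its level was at least 2-fold higher in the former for 34 of 34 members in Mus, against 5.71 percent of all genes compared between member-rich and member-poor cells. In Acomys this held for 32 of 34, against 4.77 percent, and 28 had an interval above 2. Both shares of all genes cover genes of at least 10 CPM in either set. All Mus members reached that level. In Acomys Rrm2, Rfc2, Rfc5 and Ccne2 did not, and their intervals hold 1. The median ratio was 5.93 in Mus and 5.39 in Acomys. Rfc2 at 1.37, measured from few UMIs, and Pola1 at 1.97 were the Acomys members below 2. Since the cells were chosen by genes of the same set, these ratios describe co-detection and are no test.

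The size of the ratio differed between members, also within a role. In Mus the helicase activators ran from 3.54 for Gins2 to 10.4 for Cdc45. In Mus, Rrm2 stood at 306 CPM in cells rich in the other members and 17.9 CPM in poor ones, a ratio of 17.1 (14.9 to 19.7). Ccne1, a cyclin of the G1 to S transition, had a ratio of 24.3 (15.3 to 40.5) in Mus and 18.1 in Acomys. E2f1 had 13.8 and 9.39, Uhrf1 12.5 and 9.08, and Cdc45 10.4 and 13.0. Tk1 stood at 304 against 35.3 CPM in Mus, a ratio of 8.63, and at 410 against 38.0 CPM in Acomys, a ratio of 10.8. Mcm6 had 4.06 in Mus and 5.65 in Acomys, and Dut 5.65 and 3.87. The clamp loader subunits were at the low end, with Rfc4 at 2.62 in Mus and 3.29 in Acomys and Rfc3 at 2.91 and 2.36. Cdc6 had 4.995 in Mus and 45.8 (12.04 to 389) in Acomys, the latter from 50 against 2 UMIs. Acomys Rrm2 gave 3.29 from 9 and 5 UMIs, with an interval of 0.990 to 12.5 that holds 1. The members measured in Mus alone, Pcna, Tyms and Slbp, had ratios of 4.70 (4.24 to 5.23), 3.83 and 5.08.

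**Figure D4:**
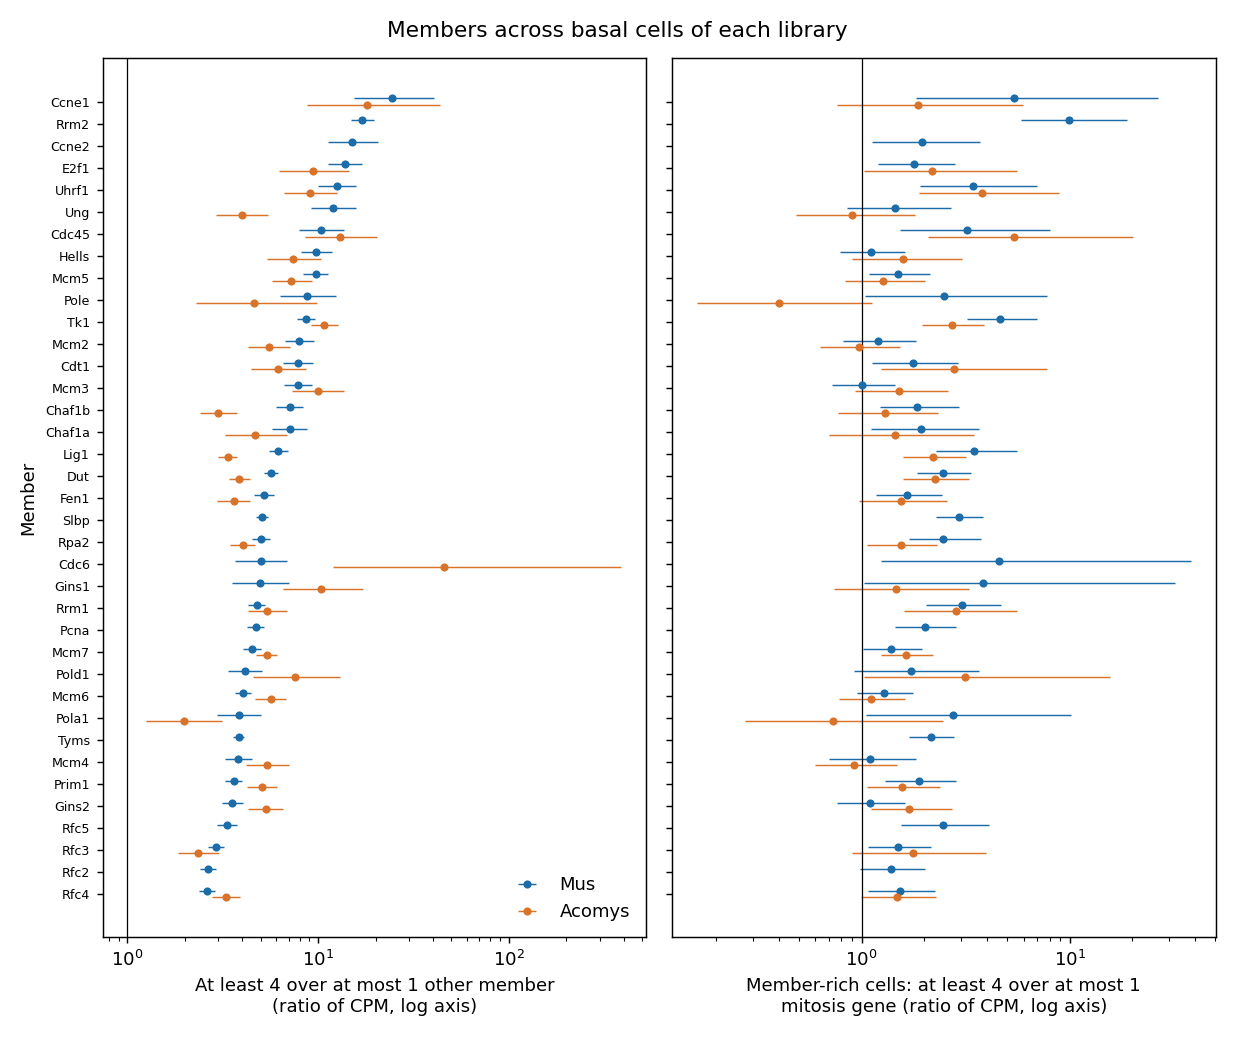
Left, ratio of each member's level in basal cells with at least 4 other members detected to that in cells with at most 1; right, within member-rich basal cells, the ratio between cells with at least 4 and at most 1 mitosis genes detected. Members with at least 20 UMIs over both sets and a finite ratio are shown, with exact 95% intervals on logarithmic axes, for the Mus and the Acomys library. On the left nearly all points lie above 2, and on the right they run from 0.401 for Acomys Pole, with an interval that holds 1, to 9.97 for Mus Rrm2.

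Markers of other cell types were read in the same cells. Summed basal markers stood at 50229 CPM in member-rich and 65464 CPM in member-poor Mus basal cells, and at 16934 and 20259 CPM in Acomys. Summed suprabasal markers stood at 13930 and 15726 CPM in Mus and at 19634 and 21637 CPM in Acomys. T cell markers stood at 232 and 174 CPM in Mus and 42.0 and 54.7 CPM in Acomys, and erythrocyte markers at 713 and 413 CPM in Mus and 5.25 and 2.21 CPM in Acomys, where 1 of the 4 had a row. Their part in the ratios was not tested.

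The wider set of replication genes and the mitosis genes were read beside the members. Of other replication genes such as origin recognition, checkpoint and repair factors, 35 of 49 were at least 2-fold higher in member-rich Mus basal cells. In Acomys 26 of 40 were. Over all genes of at least 10 CPM in either set, the shares were 5.71 percent in Mus and 4.77 percent in Acomys. Clspn, the checkpoint adaptor claspin, had ratios of 23.7 and 23.4, and Exo1, an exonuclease of mismatch repair, had 13.8 and 23.7. Gmnn, which encodes the licensing inhibitor geminin, had 8.46 and 6.62. Of G2 and mitosis genes, 42 of 46 were at least 2-fold higher in Mus and 22 of 44 in Acomys, against the same shares of all genes. Their summed ratios were 3.52 and 1.94. Cenpa, the centromeric histone, had 2.88 in Mus and 0.419 in Acomys, and the cyclin gene Ccnb1 had 3.26 and 0.823. Cell cycle control genes moved least of these lists, with 9 of 20 and 2 of 9, again against 5.71 and 4.77 percent of all genes. Among all genes that are no members, the 10 of each library with the highest lower bound included Esco2, Clspn, Hist1h1b and Cnih2 in both libraries. Esco2, a cohesin acetyltransferase, had a ratio of 21.3 (17.2 to 26.5) in Mus and 17.3 in Acomys, and Hist1h1b, a linker histone gene, had 16.9 and 31.2. Cnih2, which encodes a protein of the cornichon family, had 14.4 and 21.6.

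Member-rich cells were divided by mitosis genes, a split chosen with earlier values known. At least 4 of the 46 mitosis genes were detected in 417 of 599 member-rich Mus basal cells (69.6%, 65.8 to 73.3) and in 236 of 373 Acomys cells (63.3%, 58.2 to 68.2). Among the remaining basal cells the shares were 23.7% (22.1 to 25.3) and 24.6% (22.3 to 27.0). Cells rich in members alone made up 5.53% of Mus and 7.97% of Acomys basal cells, and cells rich in mitosis genes alone 19.4% and 19.3%. Among suprabasal cells, 11.2% in Mus and 7.19% in Acomys were likewise rich in mitosis genes alone. Among member-rich sebocytes, 66 of 85 had at least 4 mitosis genes in Mus and 23 of 49 in Acomys.

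Within member-rich basal cells, part of the set was higher where mitosis genes were also detected. Cells with at least 4 mitosis genes, 391 to 417 in Mus depending on the member left out, were set against the 31 to 39 cells with at most 1. In Mus 25 of 34 members were higher in the former with an interval that excludes 1, and for the other 9 the interval holds 1. All 34 had at least 10 CPM in either set, and among all genes at that level 9.57 percent were higher in this sense. In Acomys, with 205 to 236 against 35 to 44 cells, this was so for 14, and for the other 20 the interval holds 1. These 14 were among the 30 members with at least 10 CPM, against 6.83 percent of all genes at that level. Rrm2 stood at 391 against 39.2 CPM in Mus, a ratio of 9.97 (5.81 to 18.8). Tk1 had 4.64 (3.20 to 7.001) in Mus and 2.71 (1.96 to 3.86) in Acomys, where it stood at 499 against 184 CPM. Rrm1 had 3.02 and 2.86, Uhrf1 3.45 and 3.79, Lig1 3.47 and 2.21, and Dut 2.47 and 2.25. For Mcm2, Mcm3, Mcm4 and Mcm6 the interval holds 1 in both libraries, while Mcm7 had 1.39 (1.01 to 1.94) in Mus and 1.64 (1.24 to 2.199) in Acomys. Mcm5 had 1.504 (1.09 to 2.14) in Mus and 1.27 (0.830 to 2.02) in Acomys. Mcm3 stood at 116 against 115 CPM in Mus, a ratio of 1.01 (0.720 to 1.45), and Mcm2 at 103 against 107 CPM in Acomys, a ratio of 0.967 (0.633 to 1.54). Mcm6 had 1.28 (0.951 to 1.76) in Mus and 1.11 in Acomys, and Mcm4 had 1.10 and 0.920. Across the 30 members with at least 20 UMIs in both libraries, the Mus and Acomys ratios had a Pearson r of 0.455 and a Spearman rho of 0.490. These are correlations across genes that share the same cells and libraries, given as a description.

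Set against sebocytes, the basal level took a different side in each species, and set against follicle cells it was higher in both. In Mus, the basal sum was 0.796 times the sebocyte sum (0.774 to 0.819), with none of 33 members at least 2-fold higher in basal cells, against 9.47 percent of all genes. Ung at 0.383 and Gins1 at 0.422 were at least 2-fold lower, against 9.84 percent of all genes. In Acomys the ratio was 1.39 (1.33 to 1.45), with 4 of 28 members at least 2-fold higher, against 12.2 percent, namely Uhrf1, Tk1, Chaf1a and Ccne1. None of the 28 was at least 2-fold lower, against 5.44 percent. At a clustering resolution of 2 the Mus sebocyte class held 1517 CPM and the basal class 1783 CPM, the opposite order in Mus. Over follicle cells, the basal sum was 1.53 times higher in Mus (1.47 to 1.59) and 2.91 times in Acomys (2.54 to 3.36). At least 2-fold higher in basal cells were 8 of 33 members in Mus, against 6.76 percent of all genes, and 23 of 28 in Acomys, against 12.3 percent. The Acomys follicle class held 205 member UMIs in all, few for each member.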

How the data were processed

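Cells of adult ear skin were measured in 2 libraries, 1 of Mus musculus and 1 of Acomys cahirinus. The authors deposited UMI counts for each barcode without filtering. Cell Ranger 2.2.0 and build mm10 are named by the submitters' processing notes. The Acomys list carries identifiers of its own. Its assembly is not stated. Each matrix has 737280 barcodes, with 130039670 UMIs in Mus and 71042559 in Acomys.

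Cells had at least 4695 (Mus) or 2872 (Acomys) UMIs, set at 1/10 of the 99th percentile among the 3000 largest barcodes, and no fewer than 200 genes. Mus cells over 20% mitochondrial (4 cells) and 386 Mus and 183 Acomys doublets by a Scrublet-like score were removed. No symbol of the Acomys list began with MT-, so the mitochondrial limit could remove no Acomys cell. With the alternative minimum of 1000 UMIs, this limit removed 299 Mus barcodes. Leiden clustering used 2000 variable genes, 30 components, 20 neighbours and resolution 1. A cluster was named where at least 3 fixed markers were detected in 20% of its cells at 1.5-fold, and otherwise stayed unnamed, so that other namings could move a class. Levels are summed UMIs over the 62.1% (Mus) and 66.8% (Acomys) of UMIs on shared symbols, with exact Poisson or binomial 95% intervals.

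The members and lists were chosen with earlier results of these data known. Values are given in full for members with at least 20 UMIs in each library that are among the 12 of highest summed level, or whose basal ratio is at most 0.25 or at least 4 with an interval excluding 0.5 or 2. Other members get ranges, counts and, where 5 or fewer stand out, names chosen after their values were seen. The same naming of non-members took the 10 genes of each library with the highest lower bound among genes of at least 50 UMIs. The steps were tested on simulated counts with Python 3.11.15, numpy 2.4.6, scipy 1.17.1, scikit-learn 1.9.0, igraph 0.11.9 and leidenalg 0.10.2. Alternatives changed the UMI minimum, doublets, resolution, genes clustered, unnamed clusters, free RNA, scaling and limits.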

Additional observations from a re-analysis of the deposited data

Results flagged for a closer look

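The summed replication genes stood on opposite sides in the 2 libraries when basal cells were set against sebocytes, with a basal to sebocyte ratio of 0.796 in Mus and 1.39 in Acomys. Among the members described in full, Gins2, a helicase activator, had 0.719 and 1.49, and Tk1, thymidine kinase, had 0.639 and 2.29. Dut, the dUTPase, had 0.634 and 1.24, and Rpa2, of the single-strand binding complex, had 0.826 and 1.43. At a clustering resolution of 2 the Mus order of the sum turned, with 1517 CPM in sebocytes and 1783 CPM in basal cells, which is the Acomys side. In the main clustering the 2 ratios point in opposite directions in each case, and with 1 library per species the difference was not tested.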

How the results depend on the processing

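No paired analysis was possible because each species has 1 library. Of 125 values of the named members under an alternative, 6 crossed 1 where the main interval excluded 1. Another 34 lay outside the interval of the main setting. Crossings of 1 were not counted for members whose main interval holds 1, such as Fen1 and Rfc4. The Dut ratio fell to 0.989 with all variable genes clustered, 0.955 with a minimum of 1000 UMIs, 0.916 without doublet removal and 0.945 at resolution 2, and the Gins2 ratio to 0.970 and 0.993 with that minimum and without doublet removal. Over the alternatives, 2 to 3 members were at least 2-fold higher in Acomys basal cells and 5 to 7 lower.

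Values below give Mus before Acomys. The Acomys to Mus ratio of the basal sum was 1.05 over each library's own list, 0.914 with all variable genes, 0.863 with a minimum of 1000 UMIs, 0.852 without doublet removal, 0.871 at resolution 2, and 1.04 without the Acomys cluster led by Cyp1a1 and Fst, an alternative added after the data were seen. With free RNA subtracted, the basal to suprabasal ratio was 6.88 and 9.06, the basal sum 1814 and 1817 CPM, the suprabasal sum 264 and 200.5 CPM and the Mus sebocyte sum 2319 CPM. Over own lists these were 4.46 and 5.34 for the ratio, 1079 and 1132 CPM for basal, 242 and 212 CPM for suprabasal, and 1398 and 835 CPM for sebocyte cells. With all variable genes clustered they were 4.47 and 5.05 for the ratio, 1659 and 1517 CPM for basal and 2054 CPM for Mus sebocyte cells. With a minimum of 1000 UMIs they were 4.38 and 4.62, 1683 and 1452 CPM, and 1883 CPM. Without doublet removal the ratio was 4.48 and 4.19, the Acomys basal sum 1505 CPM, the suprabasal sum 394 and 359 CPM, and the Mus sebocyte sum 2175 CPM. At resolution 2 the Acomys ratio was 4.97, the Acomys basal sum 1553 CPM and the Mus sebocyte sum 1517 CPM. With unnamed clusters counted in, the Mus ratio was 4.41, the basal sum 1675 and 1660 CPM and the Acomys suprabasal sum 280.4 CPM. Without Dut, the member of highest level, the Mus ratio was 4.44, the basal sum 1640 and 1616 CPM, the suprabasal sum 369.5 and 284 CPM and the sebocyte sum 2015 and 1150 CPM. Without the added Acomys cluster the ratio was 6.03 and the basal sum 1853 CPM.

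The share of basal cells with at least 4 members was 11.4% and 12.3% at 1000 UMIs, and 29.3% and 33.5% at 2500 UMIs, which left out 2 Mus and 70 Acomys basal cells. It was 26.4% and 30.6% for at least 3 members, and 9.76% and 9.20% for at least 6, where Mus stood above Acomys. It was 16.5% and 17.9% with all variable genes and 16.7% and 17.9% with unnamed clusters counted in. The Acomys share was 14.1% with a minimum of 1000 UMIs, 17.0% without doublet removal, 18.7% at resolution 2 and 24.1% without the cluster led by Cyp1a1 and Fst. The order of the species in this share thus differs between settings, and the cause was not tested. Ratios that involve Acomys Rrm2, Rfc2, Rfc5 and Ccne2 rest on at most 36 UMIs of each in that library.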
